A study of Mus musculus with 2 samples.

Results

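Cells carrying transcripts of the cortical hem and of the choroid plexus were picked from embryonic mouse forebrain by the mRNA of 8 genes. A cell was a barcode with 1500 to 60000 unique molecular identifiers (UMIs, each standing for a counted mRNA molecule) of which under 10% were mitochondrial. It was taken when Rspo1, Rspo2, Rspo3, Wnt8b, Wnt3a, Folr1, Kcnj13 and Clic6 together had at least 5 UMIs, when the collagen genes Col1a1, Col1a2 and Col3a1 had at most 4, and when the neuronal genes Neurod2 and Neurod6 had at most 2. In all, 274 of 12936 cells met the rule. They were 41 of 5453 cells in replicate 1, or 0.752% (95% Wilson interval 0.555 to 1.02), and 233 of 7483 cells in replicate 3, or 3.11% (2.74 to 3.53). Replicate 3 thus gave the larger share, and the intervals, which cover counting error only, did not overlap.

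Both libraries were 10x Genomics 3' libraries of cells dissociated with papain from the dorsal telencephalon at embryonic day 14.5 (E14.5). The embryos were control animals of an Eomes-Cre mouse line with the genotype label WT, and the study's methods describe the dissected mice as C57BL/6J. Both sample titles begin with EoMltt3 and share the number that stands before the replicate number. The sources used here do not say whether the embryos carried a Cre allele, nor whether each library was a separate embryo. There was no treated or mutant group, so every comparison is between kinds of cells within these 2 libraries.

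The cortical hem is a strip of neuroepithelium at the medial edge of the embryonic cortex that secretes Wnt and BMP proteins and instructs the neighbouring hippocampal primordium. Its progenitors also give rise to many of the Cajal-Retzius cells, early neurons of the marginal zone that secrete reelin. The choroid plexus epithelium lies next to the hem, arises from the same dorsal midline and makes the cerebrospinal fluid. Its cells secrete transthyretin, transport ions and water, and carry motile cilia. R-spondins, the products of Rspo1 to Rspo3, strengthen Wnt signals at the cell surface, while Folr1 encodes a folate receptor, Kcnj13 a potassium channel and Clic6 a protein of the chloride channel family.

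The rule genes themselves are given as a description, since they chose the cells. The sum over the 8 genes ranged from 5 to 168 UMIs per cell in replicate 1, with a median of 18, and from 5 to 413 in replicate 3, with a median of 24. Rspo3 (mm10 chr10:29453106-29535867) carried 61.2% and 46.4% of these UMIs in replicates 1 and 3 and was detected in 41 of 41 and 214 of 233 cells. Rspo2 (chr15:43020788-43171594) was detected in 29 and 156 cells, and Rspo1 (chr4:124986401-125009102) in 12 and 64. Wnt8b (chr19:44493472-44514273) had a UMI in 13 and 111 cells and Wnt3a (chr11:59248036-59290751), a Wnt ligand that marks the hem, in 4 and 36. Of the choroid plexus genes, Folr1 (chr7:101858331-101870788) was found in 7 and 80 cells, Kcnj13 (chr1:87384577-87394729) in 4 and 56, and Clic6 (chr16:92498147-92541241) in 5 and 69. Rspo3 and Rspo2 transcripts were therefore spread over most of the chosen cells, while Rspo1 and each choroid gene were limited to a minority.

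The limit on Neurod2 and Neurod6 removed more cells than it left. A rule sum of at least 5 was reached by 557 cells in replicate 1 and 813 in replicate 3, of which that limit took out 515 and 576. In the removed cells Rspo3 made up 98.8% and 84.4% of the rule UMIs. The collagen limit removed 2 and 8 cells, and 1 and 4 cells failed both. At the edge of the rule, 6 and 31 cells had a sum of 4 and stayed out, with summed Lmx1a levels of 0 and 15 UMIs per 1000000 UMIs of the summed cells (CPM). The 1 and 16 cells with a sum of 5 had 86.2 and 5.42 CPM. In the 20 and 131 cells with a sum of at least 20, Lmx1a, a transcription factor of the hem, stood at 233 and 299 CPM. The cells just inside the rule in replicate 3 thus carried little of this hem factor.

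Cells were called hem-side when their 5 hem genes together had more UMIs than Folr1, Kcnj13 and Clic6, and choroid-side when the reverse held. All 41 chosen cells of replicate 1 were hem-side. A count of 0 among 41 allows a choroid-side share of up to 7.32% by the limit of 3 counts. When the rule sum was taken per 10000 UMIs, 4 of 52 chosen cells in replicate 1 were choroid-side (7.69%, Wilson interval 3.03 to 18.2). Replicate 3 held 202 hem-side and 31 choroid-side cells, the latter 13.3% of its chosen cells (9.53 to 18.3). The split was not clean: 26 of the 31 choroid-side cells also had a UMI of a hem gene, and 12 of 41 and 78 of 202 hem-side cells had a UMI of a choroid gene. Both sums reached 3 UMIs in 3 and 45 cells.

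The libraries held 64182006 UMIs in 6163 barcodes for replicate 1 and 93295807 UMIs in 8870 barcodes for replicate 3. The median chosen cell had 13582 and 12266 UMIs, of which 3.44% and 3.65% were mitochondrial. The libraries shared 23 barcode sequences, none of them chosen in both. Scrublet predicted 1 of 41 and 20 of 233 chosen cells to be doublets, which were kept in the main values. For tests, UMIs were summed over the cells of a class within each library, so n is 2 sums per class and p-values measure only the spread between these libraries. Each fit also held the sums of radial glia and of Cajal-Retzius cells outside the rule, both defined below. All classes of a fit shared an estimate of the spread, so it rests in part on classes outside the comparison. Levels are given in CPM of such a sum, and differences as log2 fold changes ± standard error (SE) from the quasi-likelihood test of edgeR, with p-values adjusted over all genes tested by the Benjamini-Hochberg method.

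The hem-side cells were of more than 1 kind, which their level of Reln, the reelin gene, set apart. At most 2 Reln UMIs were found in 11 and 122 hem-side cells of replicates 1 and 3, called Reln-low. Another 9 and 32 cells with 3 to 19 UMIs were called Reln-intermediate, and 21 and 48 cells with at least 20 UMIs Reln-high. These limits were set after the Reln values were seen. Reln-high cells made up 51.2% of the chosen cells in replicate 1 and 20.6% in replicate 3, and Reln-low cells 26.8% and 52.4%, so the libraries differed in makeup as well as in number. Reln-high cells gave 356971 of the 587728 UMIs of the hem-side sum in replicate 1 and 775357 of 2738739 in replicate 3. Reln counts per Reln-high cell ran from 30 through a median of 192 to 353 in replicate 1 and from 23 through 113.5 to 398 in replicate 3. Among choroid-side cells 1 of 31 had any Reln UMI.

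**Figure D1:**
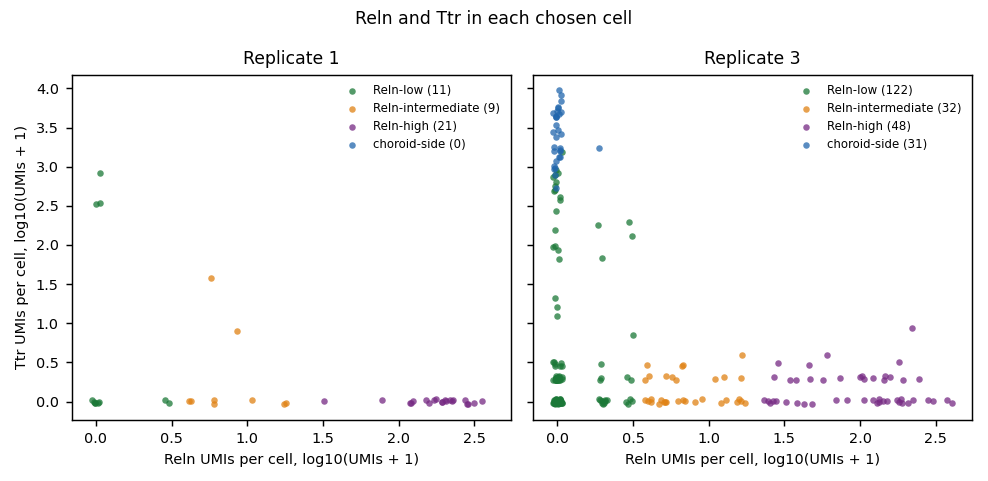
UMIs of Reln (horizontal axis) against Ttr (vertical axis) in each chosen cell, both as log10(UMIs + 1), with replicate 1 in the left panel and replicate 3 in the right and the classes in colour. The 31 choroid-side cells of replicate 3 sit at the top left with 524 to 9265 Ttr UMIs, and the Reln-high cells at the lower right with 8 Ttr UMIs or fewer.

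The label was checked against markers that the rule did not use. Lmx1a (chr1:167688230-167848741) stood at 289 and 212 CPM in Reln-low cells and at 0.797 and 2.15 CPM in radial glia, the neocortical progenitors taken here as cells with at least 6 UMIs of Slc1a3, Sox2 and Sox9, at most 1 rule UMI and few UMIs of genes of later or other lineages. Bmp4 and Msx1, also hem markers, were present, while Gdf7 had 0 UMIs in every class. Choroid-side cells carried Ttr in 31 of 31 cells and Otx2 (chr14:48656781-48667644) in 71.0% of cells after each cell was thinned to 3000 UMIs. Aqp1, the water channel of mature epithelium, was found in 16.1% of them after thinning, and Kl, a gene of the mature plexus, stood at 3.54 CPM. Reln-high cells instead carried the Cajal-Retzius genes Trp73 at 353 and 311 CPM, Lhx1 at 179 and 250 CPM and Lhx5 at 185 and 102 CPM, against 0 and 1.89, 0 and 0.629, and 9.33 and 3.77 CPM in Reln-low cells. Their Lmx1a level was 53.2 and 125 CPM. The name cortical hem therefore held for the Reln-low cells, and the Reln-high cells are called by their Reln level below.

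Against radial glia, hem-side cells differed in a large share of the transcriptome. Of 11755 genes tested, 1784 were higher in hem-side cells, or 15.2%, and 1343 were lower, or 11.4%. With the Reln-low cells alone, 940 of 10500 genes were higher (8.95%) and 448 lower (4.27%). With library sizes in place of TMM factors the median over all genes moved from -0.01 to 0.11, and 67.8% of the calls over all hem-side cells were higher in place of 57.1%. Both tests shared the same radial glia sums. The numbers of members in each gene group below are to be read against these percentages, and against a median log2 fold change over all genes of -0.01 in both. A gene could pass the filter on low counts through a single class, such as the hem-side cells. The counts and medians of lists against radial glia are therefore a description and support nothing by themselves.

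Transcription factors of the dorsal midline were mostly higher in hem-side cells. Of 20 in the list, 16 passed the filter on low counts, 12 were higher and 3 lower, with a median log2 fold change of 2.10. In the Reln-low cells, 13 of 17 tested were higher and 2 lower, with a median of 1.99. Lmx1a was at 134 and 182 CPM in hem-side cells against 0.797 and 2.15 CPM in radial glia, a log2 difference of 6.17 ± 0.49 (adjusted p = 0.000449), and both hem-side values lay far above both radial glia values. Msx1, a target of BMP signals, was at 30.6 and 40.9 CPM against 1.06 and 1.60 CPM (4.24 ± 0.33, adjusted p = 0.000445). Zic1, a zinc finger factor of the dorsal midline, was at 235 and 204 CPM against 21.3 and 21.0 CPM (3.22 ± 0.19, adjusted p = 0.000189), and Zic2 to Zic5 were higher as well by 1.76 to 3.23 on the log2 scale. The groups did not overlap for any of these genes. The share of all genes without overlap is not given, so with 2 sums a side this is a description only.

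Lhx2 and Id4 were among the lower genes. Lhx2, which restricts the extent of the hem, differed by -0.74 ± 0.19 over all hem-side cells (adjusted p = 0.0265) and by -0.59 ± 0.25 in Reln-low cells, where it did not pass (adjusted p = 0.168). Emx2 was higher over all hem-side cells by 1.14 ± 0.25 (adjusted p = 0.0153) but stood at 112 and 132 CPM in Reln-low cells against 92.3 and 114 CPM in radial glia (adjusted p = 0.452). Its level in Reln-high cells was 431 and 374 CPM.

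**Figure D2:**
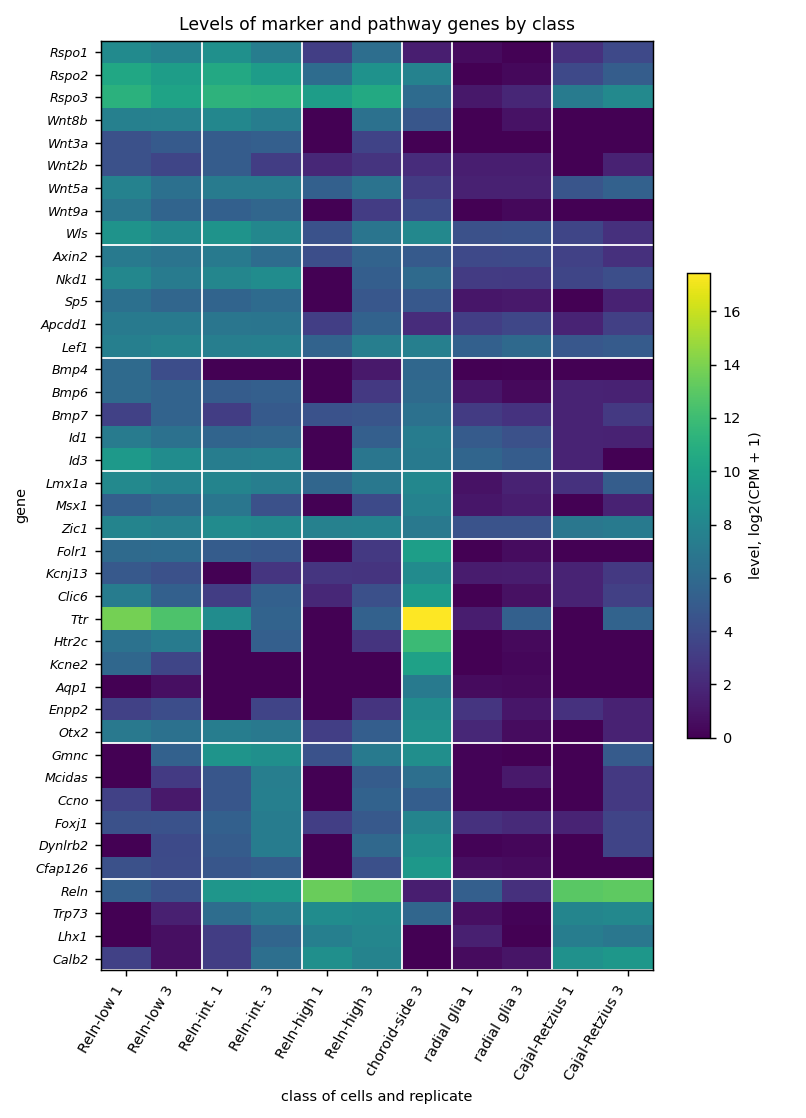
Levels of 41 named genes as log2(CPM + 1), colour scale, in each class of cells and replicate (columns). Axin2 and Wnt9a are brightest in the Reln-low and Reln-intermediate columns, Trp73 and Lhx1 in the Reln-high and Cajal-Retzius columns, and Ttr in the choroid-side column, which exists for replicate 3.

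Wnt ligands other than those of the rule were few but distinct. Of 17 in the list, 7 passed the filter, 4 were higher in hem-side cells and 1 lower, with a median log2 fold change of 2.14. The same counts held in Reln-low cells, with a median of 2.49. Wnt5a, a ligand known for signals outside the beta-catenin route, was at 95.3 and 98.6 CPM in hem-side cells against 1.99 and 2.01 CPM in radial glia (5.19 ± 0.24, adjusted p = 0.000189). Wnt9a was at 28.9 and 37.6 CPM against 0 and 0.278 CPM (5.68 ± 0.44, adjusted p = 0.000698), and Wnt2b at 11.9 and 9.13 CPM against 1.73 and 1.73 CPM (2.14 ± 0.44, adjusted p = 0.0119). These 3 hem ligands were thus all higher in the hem-side sums, with every hem-side value above every radial glia value. With 2 sums a side this separation is again a description. Whether the same cells carried all 3 was not tested.

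The remaining ligands were placed differently among the classes. Wnt7b was higher over hem-side cells (107 and 61.0 CPM against 9.30 and 4.93 CPM, 3.32 ± 0.40, adjusted p = 0.00167), yet its level was 146 and 119 CPM in Reln-high cells and 46.7 and 41.5 CPM in Reln-low cells. Wnt7a, a ligand of neocortical progenitors, was lower at 1.70 and 5.11 CPM against 43.1 and 33.0 CPM (-3.10 ± 0.47, adjusted p = 0.00368). Wnt4 and Wnt5b did not pass the test, with log2 differences of 1.94 ± 0.80 and -0.73 ± 0.38. With the library as a block Wnt4 did pass (2.16 ± 0.55, adjusted p = 0.0287). The other 10 ligands of the list were too low to be tested.

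Genes that release and receive Wnt proteins moved both ways. Of 22 in the list, 17 were tested, 7 were higher and 3 lower in hem-side cells, with a median of 0.84. Wls, the carrier that takes Wnt proteins to the cell surface, stood at 204 and 249 CPM against 19.1 and 19.8 CPM (3.40 ± 0.22, adjusted p = 0.000215) and at 495 and 313 CPM in Reln-low cells. The Wnt5a receptor Ror1 was at 35.7 and 63.9 CPM against 7.44 and 3.12 CPM (3.17 ± 0.44, adjusted p = 0.00262). Rnf43, a ligase that removes Wnt receptors and is held back by R-spondins, was higher by 2.96 ± 0.45 (adjusted p = 0.00388), while its relative Znrf3 was at 146 and 259 CPM against 191 and 174 CPM (adjusted p = 0.895). Of the R-spondin receptors, Lgr5 was higher by 3.09 ± 0.52 (adjusted p = 0.0056) and Lgr4 by 0.92 ± 0.28 (adjusted p = 0.0456), and the call of Lgr4 was lost with the library as a block (adjusted p = 0.0877). Among frizzled receptors Fzd2 (-2.24 ± 0.29, adjusted p = 0.00222) and Fzd8 (-2.91 ± 0.46, adjusted p = 0.00433) were lower.

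Targets and secreted antagonists of Wnt signalling moved both ways. Of 21 targets and secreted antagonists, 15 were tested, 7 were higher and 5 lower, with a median of 1.20, and in Reln-low cells 8 of 14 were higher and 4 lower, with a median of 1.62. Axin2, the best known readout of beta-catenin activity, was at 66.4 and 83.6 CPM against 13.7 and 13.7 CPM (2.33 ± 0.20, adjusted p = 0.000594). Nkd1, another feedback inhibitor, was at 102 and 146 CPM against 7.31 and 6.80 CPM (3.98 ± 0.23, adjusted p = 0.000189), and Sp5, a direct target, at 25.5 and 47.5 CPM against 1.06 and 1.25 CPM (4.49 ± 0.37, adjusted p = 0.000476). In Reln-high cells Axin2 was at 16.8 and 45.1 CPM and Nkd1 at 0 and 36.1 CPM, below their Reln-low values of 140 and 106 CPM and 261 and 152 CPM. The antagonists split: Wif1 (4.30 ± 0.43, adjusted p = 0.000886), Dkk3 (2.11 ± 0.22, adjusted p = 0.00101) and Apcdd1 (2.86 ± 0.34, adjusted p = 0.00154) were higher.

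Sfrp1 and Sfrp2, secreted proteins that bind Wnt ligands, were lower. Sfrp1 stood at 3.40 and 21.5 CPM in hem-side cells against 376 and 329 CPM in radial glia (-4.52 ± 0.44, adjusted p = 0.000807). In choroid-side cells of replicate 3 its level was 108 CPM. Of the nuclear partners of beta-catenin, Lef1 was higher (1.50 ± 0.34, adjusted p = 0.016), whereas Tcf7l1 (-2.59 ± 0.38, adjusted p = 0.00356) and Tcf7l2 (-2.18 ± 0.31, adjusted p = 0.00294) were lower, and all 3 kept that direction and passed in Reln-low cells.

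BMP ligands of the hem and choroid plexus were higher, at low levels. Of 15 ligands of the BMP and TGF-beta family, 9 were tested, 6 were higher in hem-side cells and 1, Inhbb, lower, with a median of 2.58. Bmp4 had 7 and 27 UMIs in hem-side cells against 0 and 1 in radial glia (adjusted p = 0.00202). Bmp6 was at 18.7 and 34.0 CPM against 1.06 and 0.347 CPM (4.63 ± 0.44, adjusted p = 0.000769) and Bmp7 at 15.3 and 37.6 CPM against 7.31 and 4.79 CPM (2.14 ± 0.39, adjusted p = 0.00753). In Reln-low cells 5 ligands were tested and 2, Bmp4 and Bmp6, were higher, with a median of 0.79.

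Receptors, targets and antagonists of BMP signals showed no common direction, with 5 higher and 4 lower of 21 tested among 23 and a median of 0.12. Id3, a direct target of BMP signals, was at 160 and 260 CPM against 50.4 and 33.3 CPM (2.24 ± 0.30, adjusted p = 0.00242) and reached 681 and 349 CPM in Reln-low cells. The protease gene Htra1 was higher by 1.78 ± 0.41 (adjusted p = 0.0181) and Id1, another BMP target, by 1.08 ± 0.32 (adjusted p = 0.0418), a call that was lost with the library as a block (adjusted p = 0.0689). The receptor genes Bmpr1a, Bmpr1b and Bmpr2 were lower by -0.93 ± 0.21, -2.08 ± 0.34 and -0.77 ± 0.17 (adjusted p = 0.0162, 0.00528 and 0.0159). Bmper, an extracellular modulator of BMP proteins, was the lowest of the list at -3.11 ± 0.29 (adjusted p = 0.000768).

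**Figure D3:**
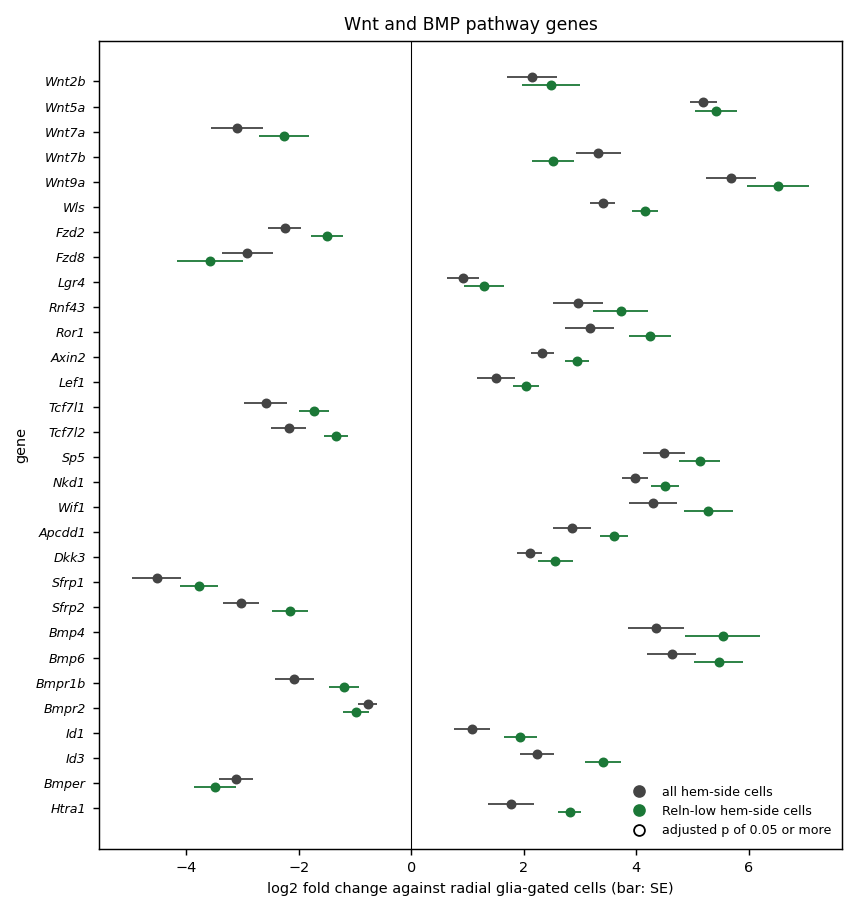
Log2 fold changes against radial glia, with standard errors as bars, of the 30 Wnt and BMP pathway genes that passed the test both in all hem-side cells (grey) and in Reln-low cells (green). Sp5, Wnt5a, Wnt9a and Bmp6 lie at the upper end and Sfrp1 and Bmper at the lower end.

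Genes of the choroid plexus epithelium were also detected on the hem side. Of 36 transport and barrier genes, 16 were tested, 9 were higher than in radial glia and 1 lower, with a median of 1.44, and in Reln-low cells 12 of 15 were higher and 1 lower, with a median of 2.24. Trpm3, a cation channel of choroid plexus and eye, was at 359 and 597 CPM in hem-side cells against 15 and 13.9 CPM (4.90 ± 0.33, adjusted p = 0.000234). Htr2c, the serotonin receptor of the epithelium, was at 17.0 and 93.5 CPM against 0 and 0.347 CPM (6.45 ± 0.77, adjusted p = 0.00238). The sums hold the few Ttr-rich hem-side cells described next, and their part in the Trpm3, Htr2c and list values was not tested.

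Ttr, which encodes transthyretin, was at 2688 and 3449 CPM in hem-side cells against 1.59 and 39.8 CPM in radial glia (7.02 ± 1.38, adjusted p = 0.00994). A few cells carried it. At least 100 Ttr UMIs were found in 3 of 11 and 16 of 122 Reln-low cells and in no Reln-intermediate or Reln-high cell. With cells thinned to 3000 UMIs, 27.3% and 30.3% of Reln-low cells had a Ttr UMI. In projection neurons, which should lack the gene, the share was 0.163% in replicate 1 and 12.3% in replicate 3, and in radial glia 0.195% and 9.89%. The median projection neuron and Reln-low cell had 12035 and 10055 UMIs in replicate 1 and 11857.5 and 11573.5 in replicate 3 before thinning. The background of free Ttr was thus high in the library that held the choroid-side cells, and single Ttr UMIs there are not read as expression.

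Secreted choroid plexus products were higher in 10 and lower in 0 of 15 tested genes among 19, with a median of 1.71. In Reln-low cells 11 of 14 were higher and 0 lower, with a median of 2.61. Sulf1, an enzyme that edits heparan sulfate outside the cell, was at 242 and 351 CPM against 0.797 and 2.36 CPM (6.98 ± 0.41, adjusted p = 0.000189). Sostdc1, a secreted antagonist of BMP and Wnt signals, was at 35.7 and 37.2 CPM against 0.266 and 0.278 CPM (5.55 ± 0.34, adjusted p = 0.000199). Igfbp2, an insulin-like growth factor binding protein, was higher by 1.71 ± 0.35 (adjusted p = 0.0119) and Ptgds, a prostaglandin synthase, by 4.21 ± 0.44 (adjusted p = 0.00101). Of the transcription factors of the plexus and of ciliated epithelium, 6 were higher and 5 lower of 17 tested among 20, with a median of 0.24. Otx2, which choroid plexus needs to form, was at 64.7 and 81.1 CPM against 2.92 and 0.486 CPM (5.18 ± 0.54, adjusted p = 0.00101). Nr2f2 was higher by 3.85 ± 0.49 (adjusted p = 0.00202), while Meis1 (-3.91 ± 0.47, adjusted p = 0.00162) and Pou3f3 (-2.52 ± 0.43, adjusted p = 0.00571) were lower.

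The 31 choroid-side cells could be compared with the 202 hem-side cells within replicate 3 only, so these values carry no test of replication. Ratios of CPM are given with 95% conditional binomial intervals, which cover counting error alone. Of 4866 genes with at least 50 CPM in the higher class, 379 were at least 4-fold higher in choroid-side cells (7.79%) and 463 at least 4-fold lower (9.52%). Ttr was at 176762 CPM against 3449 CPM, a ratio of 51.2 (50.2 to 52.3), with 524 to 9265 UMIs per cell and a median of 2626. Since Ttr alone took so large a part of the UMIs of these cells, the CPM of every other gene there is lower than it would be without it, and no correction was made for this.

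Of 36 transport and barrier genes, 24 had at least 50 CPM on the side where they were higher, and of these 19 were at least 4-fold higher in choroid-side cells and 0 lower, with a median log2 ratio of 3.46 against -0.39 over all genes. A gene could pass this limit through choroid-side cells alone, so the counts and medians of lists in this comparison are a description and support nothing by themselves. Htr2c was at 3796 CPM against 93.5 CPM, a ratio of 40.6 (35.7 to 46.4), and Kcne2, a potassium channel subunit of the epithelium, at 1004 CPM against 6.57 CPM, a ratio of 153 (95.8 to 260). Car2, a carbonic anhydrase used in fluid secretion, was at 216 CPM against 4.02 CPM, or 53.8-fold higher (29.0 to 111). Aqp1 had 83 UMIs in choroid-side cells and 1 UMI in hem-side cells, with a ratio of 402 (70.3 to 16085). Of the secreted products, 10 of 15 were at least 4-fold higher and 1 lower, with a median log2 ratio of 2.15. Enpp2, a secreted lipid enzyme, was at 352 CPM against 12.4 CPM (28.4-fold, 19.7 to 42.1) and Sostdc1 at 614 CPM against 37.2 CPM (16.5-fold, 13.2 to 20.8). Each of these genes still had at least 1 UMI on the hem side.

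Otx2 was 5.55-fold higher in choroid-side cells (4.62 to 6.67) and Msx1 5.20-fold (3.98 to 6.78), while Lmx1a was at 269 CPM against 182 CPM, a ratio of 1.48 (1.22 to 1.77), and Wls at 287 CPM against 249 CPM, a ratio of 1.15 (0.964 to 1.37). Bmp4 was 5.57-fold higher (3.22 to 9.69), Bmp7 2.35-fold (1.64 to 3.33) and Gdf5 7.76-fold (4.30 to 14.3). Wnt5a went the other way, at 98.6 CPM in hem-side cells against 7.08 CPM, 13.9-fold higher on the hem side (5.37 to 51.5), and so did Axin2, 2.78-fold (1.70 to 4.85). The hippocampal list was lower in choroid-side cells as well, with 7 of 14 at least 4-fold lower and 0 higher and a median log2 ratio of -2.29. There Zbtb20 was 6.53-fold higher on the hem side (5.75 to 7.46), Nfix 11.9-fold (8.38 to 17.6), and Prox1 had 0 UMIs in choroid-side and 216 in hem-side cells, at least 14.8-fold higher by the limit of 3 counts.

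The genes with the widest ratios were named by size among those with at least 50 CPM. Toward the choroid side they were Tmem72, Armc4, Aqp1, Aebp1, Nme9, Kcne2, Prr32, Ak7, Defb11 and Smim22. Tmem72, Armc4, Aqp1 and Nme9 rested on 1 UMI on the hem side. Defb11, which had 57 UMIs against 0, was at least 92.1-fold higher. Toward the hem side they included Vcan, a matrix proteoglycan (82.3-fold, 22.7 to 681), Ephb1, a guidance receptor with 3 UMIs in choroid-side and 1068 in hem-side cells, and Cadps, a factor of vesicle release (52.8-fold, 26.7 to 122). Pde1a, a phosphodiesterase, had 0 UMIs in choroid-side cells and 1059 in hem-side cells, at least 72.8-fold higher on the hem side.

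Motile cilium genes were the group with the highest median against radial glia among those of the hem and choroid plexus, which is a description only. Of 39 in the list, 21 were tested, 17 were higher in hem-side cells and 1, Mns1, lower, with a median of 3.41, and in Reln-low cells 13 of 15 were higher and 0 lower, with a median of 2.90. Gmnc, the regulator that starts the multiciliate programme, had 71 and 328 UMIs in hem-side cells against 1 and 0 in radial glia (adjusted p = 0.000425). Within the hem side its level was highest in Reln-intermediate cells, 518 and 415 CPM, against 0 and 40.9 CPM in Reln-low and 19.6 and 139 CPM in Reln-high cells. Mcidas, which acts after Gmnc, was at 24.3 and 174 CPM in Reln-intermediate cells and at 0 and 6.92 CPM in Reln-low cells. Foxj1, the factor that switches on cilium genes, was higher by 2.85 ± 0.41 over hem-side cells (adjusted p = 0.00329). Dynlrb2, a dynein light chain, was at 6.81 and 45.6 CPM against 0.133 and 0.208 CPM (5.55 ± 0.73, adjusted p = 0.00225), and Dnah9, a dynein heavy chain, at 35.7 and 46.7 CPM against 0.93 and 1.25 CPM (4.65 ± 0.29, adjusted p = 0.0002). Cilium transcripts were thus present on the hem side in both libraries, with lower values of Foxj1, Dynlrb2 and Dnah9 in replicate 1.

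Of 39 cilium genes, 29 had at least 50 CPM on the side where they were higher, and of these 27 were at least 4-fold higher in choroid-side cells and 0 lower, with a median log2 ratio of 3.52, which is again a description only. Cfap126, a protein of the ciliary axoneme, was at 641 CPM against 17.9 CPM (35.8-fold, 26.5 to 49.3), Foxj1 at 230 CPM against 40.9 CPM (5.63-fold, 4.34 to 7.31) and Dynlrb2 at 407 CPM against 45.6 CPM (8.92-fold, 7.14 to 11.2). Gmnc differed less, at 395 CPM against 120 CPM (3.30-fold, 2.77 to 3.92).

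Cilium genes are known targets of RFX factors, and Rfx3 was detected in every class, at 351 and 523 CPM in hem-side cells against 249 and 237 CPM in radial glia (0.73 ± 0.22, adjusted p = 0.0435). The RFX half-site GTTGCC, searched on both strands (GGCAAC on the other), occurred in the 250 bases before the start of 16 of 36 cilium genes with a RefSeq promoter, or 44.4%, against 3195 of 27025 promoters, or 11.8%. The motif was chosen after the lists had been compared, and the share is a description of the letters present. The lists of projection neuron and of erythroid genes reached 42.9%, with 3 of 7 promoters each. Of the 16 genes, 12 were tested, 10 were higher in hem-side cells and 1 lower. In the whole cilium list 17 were higher and 1 lower of 21 tested, so the count did not set genes with the half-site apart. As examples, the 60 bases around the match are shown for 6 of the higher genes, 5' to 3' in the direction of the gene, with the half-site in capitals, from RefSeq on GRCm38.p6, whose coordinates are those of mm10. They were picked after their values were seen. Deup1 and Ccno take part in making basal bodies, and the others are parts of the cilium or expressed with it. The windows lie at chr9:15627893-15627952 (Deup1, minus strand), chr13:112987556-112987615 (Ccno, plus), chr8:116504937-116504996 (Dynlrb2, plus), chr11:72361885-72361944 (Tekt1, minus), chr1:69826832-69826891 (Spag16, plus) and chr11:58801995-58802054 (Fam183b, minus).
Deup1: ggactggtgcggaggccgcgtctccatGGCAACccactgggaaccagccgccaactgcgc
Ccno: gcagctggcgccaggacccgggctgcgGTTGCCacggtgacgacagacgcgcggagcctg
Dynlrb2: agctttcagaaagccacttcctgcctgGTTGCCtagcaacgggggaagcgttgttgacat
Tekt1: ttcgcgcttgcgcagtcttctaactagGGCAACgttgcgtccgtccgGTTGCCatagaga
Spag16: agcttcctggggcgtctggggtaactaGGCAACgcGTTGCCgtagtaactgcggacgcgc
Fam183b: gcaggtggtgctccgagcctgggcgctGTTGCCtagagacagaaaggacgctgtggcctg
Tekt1 and Spag16 show 2 matches each within the window, of both orientations. Their levels in hem-side cells were 8.51 and 35.8 CPM for Tekt1, a filament protein of the axoneme, against 2.13 and 1.67 CPM in radial glia (3.42 ± 0.56, adjusted p = 0.00528), and 8.51 and 12 CPM for Spag16 against 2.52 and 1.18 CPM (2.24 ± 0.49, adjusted p = 0.0187). Deup1 was higher by 3.41 ± 0.62 (adjusted p = 0.00753) and Fam183b by 5.44 ± 0.58 (adjusted p = 0.00111), and Ccno had 4 and 105 UMIs against 1 and 2 (adjusted p = 0.00172). Of other motifs searched in the same way, the FOXJ motif GTAAACA was found in 3 of 36 cilium promoters (8.33%) against 3.54% of all promoters. The OTX motif TAATCC occurred in 7.21% and the TCF and LEF motif CTTTGAT in 3.72% of all promoters, and in 2 of 36 cilium promoters each.

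Genes of neocortical radial glia were in part lower on the hem side, most of all in Reln-high cells. Their summed level was 11916 and 6702 CPM in Reln-low cells and 5154 and 3817 CPM in Reln-intermediate cells. It was 529 and 1577 CPM in Reln-high cells and 12543 and 9107 CPM in radial glia. Of 24 tested, 13 were lower and 1, the Notch ligand gene Dll1, higher, with a median of -1.40, and in Reln-low cells 9 of 22 were lower and 0 higher, with a median of -0.44. Pax6, a patterning factor of cortical progenitors, was at 57.8 and 95.3 CPM over all hem-side cells against 241 and 206 CPM (-1.60 ± 0.24, adjusted p = 0.00368). Sox21 (-3.27 ± 0.50, adjusted p = 0.00388) and Ptprz1 (-3.19 ± 0.53, adjusted p = 0.00534) fell furthest below radial glia, and both also passed in Reln-low cells. Fabp7, a lipid binding protein of radial glia, was lower over all hem-side cells (-1.54 ± 0.25, adjusted p = 0.00532), but Reln-low cells stood at 5244 and 2004 CPM against 4132 and 2882 CPM (-0.03 ± 0.38, adjusted p = 0.989). For Fabp7 the Reln-low and radial glia values overlapped. Radial glia were chosen by at least 6 UMIs of Slc1a3, Sox2 and Sox9, which hem-side cells did not need. Genes expressed together with these could be higher in radial glia through that choice, so the counts of this list are a description only.

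The hippocampal primordium list was mixed, with 5 higher and 3 lower of 15 tested among 16 and a median of 0.37, and 7 higher and 2 lower of 15 in Reln-low cells, with a median of 0.81. Prox1, a factor of the dentate gyrus, was at 52.7 and 78.9 CPM in hem-side cells against 13.8 and 13.3 CPM (2.19 ± 0.28, adjusted p = 0.00202). Zbtb20, a hippocampal determinant, was higher in Reln-low cells (0.81 ± 0.22, adjusted p = 0.0369) and did not pass over all hem-side cells (0.36 ± 0.24, adjusted p = 0.31). Nr2f1 was lower in both (-1.38 ± 0.17, adjusted p = 0.00178, over all). The antihem and commissural plate ligands had 1 higher and 4 lower of 8 tested among 16, with a median of -1.08. Fgf17, a ligand of the rostral midline, had 83 UMIs in hem-side cells of replicate 3 and 0 in replicate 1, so its level of 30.3 CPM rested on a single library and it was not tested.

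Cell cycle genes were lower than in radial glia. Of 28 S phase genes tested, 26 were lower and 0 higher, with a median of -1.51, and of 30 genes of G2 and mitosis 25 were lower and 0 higher, with a median of -1.66. In Reln-low cells the counts were 14 of 28 and 3 of 30, with medians of -0.76 and -0.96. Mki67, a proliferation marker, was at 32.3 and 84.0 CPM in hem-side cells against 291 and 248 CPM (-2.20 ± 0.43, adjusted p = 0.0101). In Reln-low cells it was at 0 and 118 CPM, without passing the test (adjusted p = 0.0599). With every cell thinned to 3000 UMIs, at least 2 UMIs of the G2 and mitosis list were found in 54.5% and 59.7% of Reln-low cells, in 9.52% and 20.8% of Reln-high cells and in 48.4% of choroid-side cells. The shares in radial glia were 89.5% and 87.0% and in projection neurons, taken as the background of free RNA, 13% and 18.2%. Unthinned, 63.6% and 86.1% of Reln-low cells and 90.3% of choroid-side cells had 2 such UMIs. The thinning left out 3 Reln-low cells and 2 radial glia of replicate 3, and 6 and 18 projection neurons of replicates 1 and 3. Reln-low cells thus stood between radial glia and the background, and Reln-high cells near the background.

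**Figure D4:**
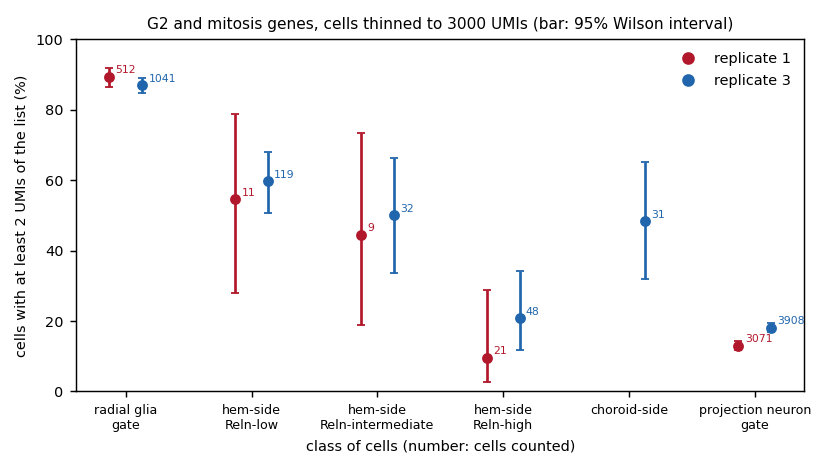
Share of cells (percent, vertical axis) with at least 2 UMIs over the 30 genes of G2 and mitosis after thinning to 3000 UMIs, by class and replicate, with 95% Wilson intervals as bars. Radial glia stand near 90%, Reln-low cells between 54% and 60%, and Reln-high cells at 9.52% and 20.8%.

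Cdkn1c, Cdkn1a and Gadd45g were the 3 higher genes of the list of cyclins and cycle inhibitors. Cdkn1c, which encodes the inhibitor p57, was at 107 and 160 CPM in hem-side cells against 4.92 and 7.01 CPM in radial glia (4.27 ± 0.27, adjusted p = 0.000211) and at 140 and 142 CPM in Reln-low cells. Its level in choroid-side cells was 271 CPM. Cdkn1a, which encodes p21, was higher by 6.22 ± 0.44 over hem-side cells (adjusted p = 0.0003) but was at 0 and 7.55 CPM in Reln-low cells, 40.5 and 544 CPM in Reln-intermediate cells and 174 and 399 CPM in Reln-high cells. Gadd45g, a growth arrest gene, was higher by 2.95 ± 0.23 (adjusted p = 0.000442), and the cyclin partner gene Cdk6 (-2.94 ± 0.39, adjusted p = 0.00232) and Ccnd2 (-2.14 ± 0.59, adjusted p = 0.0331) were lower. Over the whole list 3 were higher and 7 lower of 16 tested, with a median of -0.69, and in Reln-low cells 2 were higher and 2 lower of 16, with a median of -0.51.

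The Reln-high cells were set beside Cajal-Retzius cells outside the rule, taken as cells with at least 3 UMIs of Trp73, Lhx1 and Lhx5 and at least 3 of Reln. Of 48 and 87 cells that met this gene requirement, 23 and 59 were themselves chosen by the rule, or 47.9% and 67.8%, which left 25 and 28 for comparison. Scrublet predicted 8 of the 25 and 5 of the 28 to be doublets, against 0 of 21 and 2 of 48 Reln-high cells. Unlike the chosen cells, the 25 and 28 had no limit on Neurod2 and Neurod6. In the Reln-high class 21 of 21 and 46 of 48 cells met the requirement, and these cells are part of the hem-side sums. Between Reln-high cells and these, edgeR called 0 of 9148 genes (0.0%), with 733 at an unadjusted p under 0.05, DESeq2 called 62, and edgeR with the library as a block called 11. With 2 sums a side, this does not show that the cells are alike. Calb2, the calretinin gene, was at 417 and 224 CPM in Reln-high cells against 443 and 586 CPM, and Ebf3, a factor of these neurons, at 479 and 375 CPM against 484 and 345 CPM. Over all hem-side cells, 14 of 14 tested Cajal-Retzius genes outside the ones that set the classes were higher than in radial glia, with a median of 5.25, and in Reln-low cells 9 of 14, with a median of 2.26.

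All chosen cells together, compared with the same Cajal-Retzius cells, gave 131 called genes of 11972 (1.09%), 116 higher and 15 lower. The number depended on the settings, from 0 when no collagen or Neurod UMI was allowed to 1972 when no filter on low counts was used. The 10 with the largest positive change were Id3, Zfp36l1, Sparc, Clu, Htra1, Igfbp5, Rhoc, Sulf1, Plekhg1 and Wwtr1, several of which are known from glial and epithelial cells. Id3 had 94 and 790 UMIs in chosen cells against 1 and 0 (adjusted p = 0.0184), and Sparc, a matrix protein gene, was at 237 and 451 CPM against 0 and 8.74 CPM (6.14 ± 0.66, adjusted p = 0.0231). The 10 lower were Galntl6, Gabbr2, Dlg2, Cdh12, Serpini1, Kcnq3, Gria2, Got1, Aig1 and Lrfn5, among them synaptic and channel genes. Chosen cells had to be low in Neurod2 and Neurod6, which the Cajal-Retzius cells did not, and a larger share of the latter were predicted doublets. With predicted doublets removed, 185 genes were called, 166 higher and 19 lower. What either difference gave to the 10 lower genes was not tested. Dlg2, a postsynaptic scaffold gene, was at 133 and 76.3 CPM against 690 and 415 CPM (-2.46 ± 0.37, adjusted p = 0.0364).

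Beyond the lists, the largest positive changes of hem-side cells against radial glia among genes at 50 CPM or more were those of Mia, Zfp804b, Gmnc, Cacna2d2, Nhlh2, Ttr, Sulf1, Pde1a, Calb2 and Lhx1os. Mia, a small secreted protein gene, was at 247 and 146 CPM against 0.266 and 0.278 CPM (7.92 ± 0.47, adjusted p = 0.000189). Zfp804b was at 1019 and 817 CPM against 5.05 and 1.87 CPM (7.83 ± 0.50, adjusted p = 0.000211), and at 2669 and 917 CPM in Reln-low cells. Pde1a was at 277 and 387 CPM against 2.39 and 1.80 CPM (6.94 ± 0.28, adjusted p = 0.000189). Cacna2d2, a calcium channel subunit gene, and Nhlh2, a neuronal factor, were at 616 and 542 CPM and at 734 and 534 CPM in Reln-high cells, against at most 10.1 CPM of either in Reln-low cells. These genes thus came from different classes within the hem side.

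The largest negative changes were those of Meis2, Sfrp1, Acss1, Hmga2, Lpar1, Thsd4, Alk, Sema3a, Pou3f2 and Cdh20. Meis2, a homeobox factor, was at 28.9 and 187 CPM against 2713 and 2484 CPM (-4.61 ± 0.68, adjusted p = 0.0034), and it was lower in Reln-low cells as well (-3.79 ± 0.24, adjusted p = 1.55e-05). Alk, a receptor tyrosine kinase gene, was at 8.51 and 8.03 CPM against 149 and 145 CPM (-4.22 ± 0.23, adjusted p = 0.000189). Hmga2, Thsd4, Sema3a, Pou3f2 and Cdh20 had 0 UMIs in the hem-side cells of replicate 1. Of the 3127 genes called over all hem-side cells and the 1388 called in Reln-low cells, 1184 were shared, which is 37.7% of the first and 85.0% of the second list. Of the shared genes 1180 had the same direction and 4 the opposite, in tests that share their radial glia and part of their hem-side cells.

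Markers of other cell types were summed in each class. The 16 meningeal genes outside the rule totalled 196 and 143 CPM in Reln-low cells and 338 CPM in choroid-side cells against 41.6 and 35.9 CPM in radial glia, with Lum, Foxc1 and Col6a1 at 0 in Reln-low cells and Dcn at 84.0 and 76.7 CPM there. The 10 endothelial genes totalled 112 and 80.5 CPM, and 250 CPM in choroid-side cells, against 29.5 and 19.4 CPM, with Cdh5 at 0. The 10 pericyte genes totalled 28.0 and 33.3 CPM against 55.9 and 61.8 CPM in radial glia, the 10 microglia genes 9.33 and 23.3 CPM against 22.9 and 14.5 CPM, and the 10 erythroid genes 149 and 428 CPM against 1513 and 873 CPM, with 1981 CPM in choroid-side cells. Of 12 GABAergic genes the total was 681 and 682 CPM against 141 and 90.6 CPM, of which the receptor gene Erbb4 gave 607 and 588 CPM. The 15 diencephalic genes totalled 74.6 and 123 CPM against 195 and 168 CPM. Their part in the results above was not tested.

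Immediate early and stress genes, a group known to respond to cell dissociation, were also mostly higher. Of 12 tested, 9 were higher over hem-side cells and 1, Jun, lower, with a median of 1.51, and in Reln-low cells 8 were higher and 0 lower, with a median of 2.37. Their summed level was 3639 and 2496 CPM in Reln-low cells, 1493 and 1947 CPM in Reln-high cells, 2261 CPM in choroid-side cells and 1952 and 2074 CPM in radial glia. Fos was at 513 and 182 CPM in Reln-low cells against 27.1 and 21.4 CPM in radial glia (3.39 ± 0.54, adjusted p = 0.00249). Whether this bears on the other groups was not tested. Genes of projection neurons were higher in 9 and lower in 0 of 12 tested over hem-side cells, with a median of 3.45, and intermediate progenitor genes in 6 and 1 of 8, with a median of 2.15. Their summed levels were 6012 and 4446 CPM and 728 and 753 CPM in Reln-high cells, against 1176 and 992 CPM and 457 and 425 CPM in Reln-low cells.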

How the data were processed

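Single-cell libraries were made from dissociated mouse dorsal telencephalon at E14.5, and the authors deposited UMI counts per gene and barcode for each library, with no normalization. Per the labels' processing notes these counts came from Cell Ranger 7.0.0 and mm10. Each table held 32285 genes, and depth per cell limits how low a transcript could be seen. Members, gene lists and limits were chosen with earlier results of these data known.

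Cells were filtered and grouped by the UMI limits given in the text, read with Python 3.11.15, numpy 2.4.6, pandas 2.3.3 and scipy 1.17.1, and counts were summed per class and library. Radial glia also had at most 2 UMIs of Eomes and Neurog2 and at most 1 of Gsx2, Dlx1, Dlx2 and Gad2. Projection neurons had at least 5 UMIs of Neurod2 and Neurod6. Sums were compared in R 4.3.3 by edgeR 4.0.16 (filterByExpr, TMM, quasi-likelihood test, prior count of 2, calls at a Benjamini-Hochberg adjusted p under 0.05), leaving out the genes that chose the cells. The planned design for hem-side cells also included choroid-side sums, which were left out since replicate 1 had 0 such cells. DESeq2 1.42.0, library sizes, other filters, other limits and thinning were the alternatives, and Scrublet (scanpy 1.11.5) scored doublets. Class sums of a library come from the same cells' suspension. The main fits had no term for the library, so their p-values do not use this pairing. The library served as the block in an alternative fit only. The correlation of radial glia and hem-side deviations across genes was 0.146. On simulated counts for hem-side cells against radial glia (10825 genes), 80% of genes changed by 2 on the log2 scale were recovered. Of those changed by 1, 13.3% were recovered, and 7 of the 102 calls (6.86%) were false. False calls were 10 of 107 (9.35%) for Reln-low cells and 9 of 94 (9.57%) for all chosen cells against radial glia. The simulation drew every class from a pooled profile, with few changed genes and sums independent of the library. Real classes differed in far more genes and in their mix of cells per library, so these rates need not hold for the real data. The 2 libraries differed beyond sampling noise and were kept as 2 replicates.

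Named genes were the members of the lists that carry each result, and the 10 genes with the largest change each way at 50 CPM or more. Coordinates and promoters came from RefSeq, GRCm38.p6. Figures were drawn with matplotlib 3.10.9. Results on some genes are not reported here.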

Additional observations from a re-analysis of the deposited data

How the results depend on the processing

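The limits of Reln and the tests on Reln classes were chosen after seeing the data. For hem-side cells against radial glia, 3127 calls became 1909 with cells thinned to 3000 UMIs, 1388 with at most 2 Reln UMIs and 1113 with 0 Reln UMIs. For Reln-low cells, 1388 calls became 779 with DESeq2, 2086 with the rule sum per 10000 UMIs and 871 with thinning. All chosen cells against radial glia gave 2934 calls, and 4478 without the filter on low counts. Against Cajal-Retzius cells, 131 calls became 608 with DESeq2, 1972 without the filter, 396 and 11 with a rule sum of at least 8 and 3, 525 with the rule sum per 10000 UMIs, 216 with thinning, 0 with no collagen or Neurod UMIs and 0 with Reln-high cells alone. The cause of these shifts was not tested.

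With the library as a replicate block the calls were 2953 for hem-side cells, 1183 for Reln-low cells, 2791 for chosen cells against radial glia and 171 against Cajal-Retzius cells, and no call of the other named genes changed beyond those of Id1, Lgr4 and Wnt4. In each replicate alone, a fold with no test, 3125 to 3127 hem-side calls, 1326 to 1388 Reln-low calls, 2928 to 2934 chosen-cell calls against radial glia and 131 of 131 against Cajal-Retzius cells kept their direction. The calls were made from these same replicates, so this was largely fixed in advance and is no check of the calls. Of the named genes, Fabp7 and Calb2 turned in sign with 0 Reln UMIs, to 0.12 and -0.054. Named calls were lost 13 times with 0 and 13 times with at most 2 Reln UMIs, 9 with no collagen or Neurod UMIs, 6 with a rule sum of at least 3, 4 with DESeq2, 4 with the stricter filter on cells, 2 with the block and 1 with each of library sizes (Lhx2), thinning, no filter on low counts, doublets removed, a rule sum of at least 8 and the rule sum per 10000 UMIs.

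Without the CPM filter, 957 and 1203 genes were at least 4-fold higher and lower on the choroid side. The block, DESeq2, library sizes and left-out replicates were not run there because replicate 1 had 0 choroid-side cells. The share of chosen cells was 2.12% when pooled, 0.752% to 3.11% by replicate, 2.59% in replicate 3 with a rule sum of at least 8, 1.05% and 3.92% with at least 3, and 0.513% and 1.99% with no collagen or Neurod UMIs. The choroid-side share was 11.3% when pooled and 0% to 13.3% by replicate. At 1500 UMIs, the G2 and mitosis shares were 43.4% in Reln-low, 18.8% in Reln-intermediate and 29.0% in choroid-side cells of replicate 3, and in replicates 1 and 3 they were 0% and 10.4% in Reln-high cells, 77.5% and 74.2% in radial glia and 6.95% and 11.0% in projection neurons. There Lmx1a was found in 18.2% of Reln-low cells and 0.065% of projection neurons of replicate 1, and Ttr in 0% and 5.96% of projection neurons. Depth limits genes of a few UMIs, above all in the 11 Reln-low cells of replicate 1.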
